A study of Homo sapiens with 6 samples.

Results

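The cytokine, chemokine and NF-kB genes are a set of 48 genes among the 58174 in the deposited table. They were chosen by gene symbol and hold chemokines, interleukins and other cytokines, cytokine receptors, NF-kB subunits, their inhibitors and induced genes, and STAT3 with SOCS3. All 48 symbols matched 1 row each. Their mRNA was measured by polyA RNA-seq in KNS42, an established cell line from a pediatric glioblastoma, grown adherently in medium with serum. KNS42 cells were transfected with an siRNA pool against MSI1 (siMSI1) or with a control siRNA (siC), and RNA was taken 72 h after transfection from 3 libraries per group. No genotype differs between the groups, and all results concern a single cell line and a single pool of siRNAs against the Musashi1 RNA-binding protein. The labels do not say whether the 3 libraries of a group came from separate cultures, so the p-values measure the spread between these libraries.

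Cytokines and chemokines are secreted proteins by which cells recruit immune cells and instruct their neighbours. Many of their genes are switched on by NF-kB, a family of dimeric transcription factors that IkB proteins hold in the cytoplasm until a receptor such as the TNF or IL-1 receptor activates the IkB kinase. The IL-6 family, with LIF, IL-11 and oncostatin M, instead signals through the shared receptor gp130 (encoded by IL6ST) to STAT3, whose target SOCS3 shuts the receptor off again. In glioblastoma both pathways are known for the mesenchymal state of the tumor cells and for the attraction of macrophages and microglia.

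The values are FPKM, the reads on a gene per kilobase of its length and scaled to a size of the library. This size was 0.977 (siMSI1 replicate 3) to 1.025 (siMSI1 replicate 1) times the reads on genes of the library. The libraries held 13087025 to 18024080 reads on genes, and 3 reads on a gene of 2 kb correspond to 0.0829 to 0.114 FPKM, which covers counting error only. MSI1 measured 63.7, 61.9 and 66.9 FPKM in the siC libraries against 12.1, 12.3 and 11.2 FPKM in the siMSI1 libraries. The 6 markers of glioma cells and neural progenitors (VIM, NES, SOX2, MSI1, GFAP and CD44) summed to 1512 to 1580 FPKM in siC and to 1222 to 1325 FPKM in siMSI1. VIM made up most of this sum, with means of 1035 and 865 FPKM. Within the list GFAP rose from 1.63 to 4.61 FPKM (log2 fold change 1.46, limma adjusted p 0.000905), while CD44 fell by 0.46 on the log2 scale. The 8 macrophage and microglia markers summed to 0.209 to 0.682 FPKM in siC and to 0.483 to 0.795 FPKM in siMSI1, with AIF1 at 0 in all libraries. The 6 lymphocyte markers reached at most 0.168 FPKM together, with CD2 and MS4A1 at 0 and overlapping groups. The 4 endothelial markers summed to 0.134 to 0.262 FPKM in siC and to 0.290 to 0.442 FPKM in siMSI1, without overlap. Of these, CDH5 had means of 0.0167 and 0.166 FPKM and PECAM1 of 0.00524 and 0.0612 FPKM, at no more than 22 and 8 reads per library. The part of these low signals in the results was not tested.

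Silent and strongly expressed members stood side by side in KNS42 cells. Of the 48 genes, 26 had a mean of at least 0.5 FPKM over the 6 libraries and were tested, and 22 were not. The chemokine CCL2, which attracts monocytes, was the single member above 100 FPKM. The inflammatory chemokines of the CXC cluster on chromosome 4 were almost silent, while RELA, STAT3, IL6ST and OSMR had means of at least 18.9 FPKM in both groups. After MSI1 knockdown, 8 of the 26 tested members reached an adjusted p of at most 0.01 (limma on log2(FPKM + 0.1), Benjamini-Hochberg over 15069 tested genes). Of these, 6 were higher and 2 were lower in siMSI1. The same test called 11.0% of all tested genes, with 5.15% higher and 5.83% lower. The log2 fold changes of the tested members had a median of 0.20, with 19 above 0 and 7 below 0, against a median of 1.46e-05 with 7535 above and 7534 below over all tested genes. The groups did not overlap for 15 of the 26 genes, 12 higher and 3 lower, where 42.8% of all tested genes did not overlap (21.4% higher, 21.5% lower). In a bulk sample, fewer cells that express a gene and less RNA per cell cannot be told apart.

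**Figure D1:**
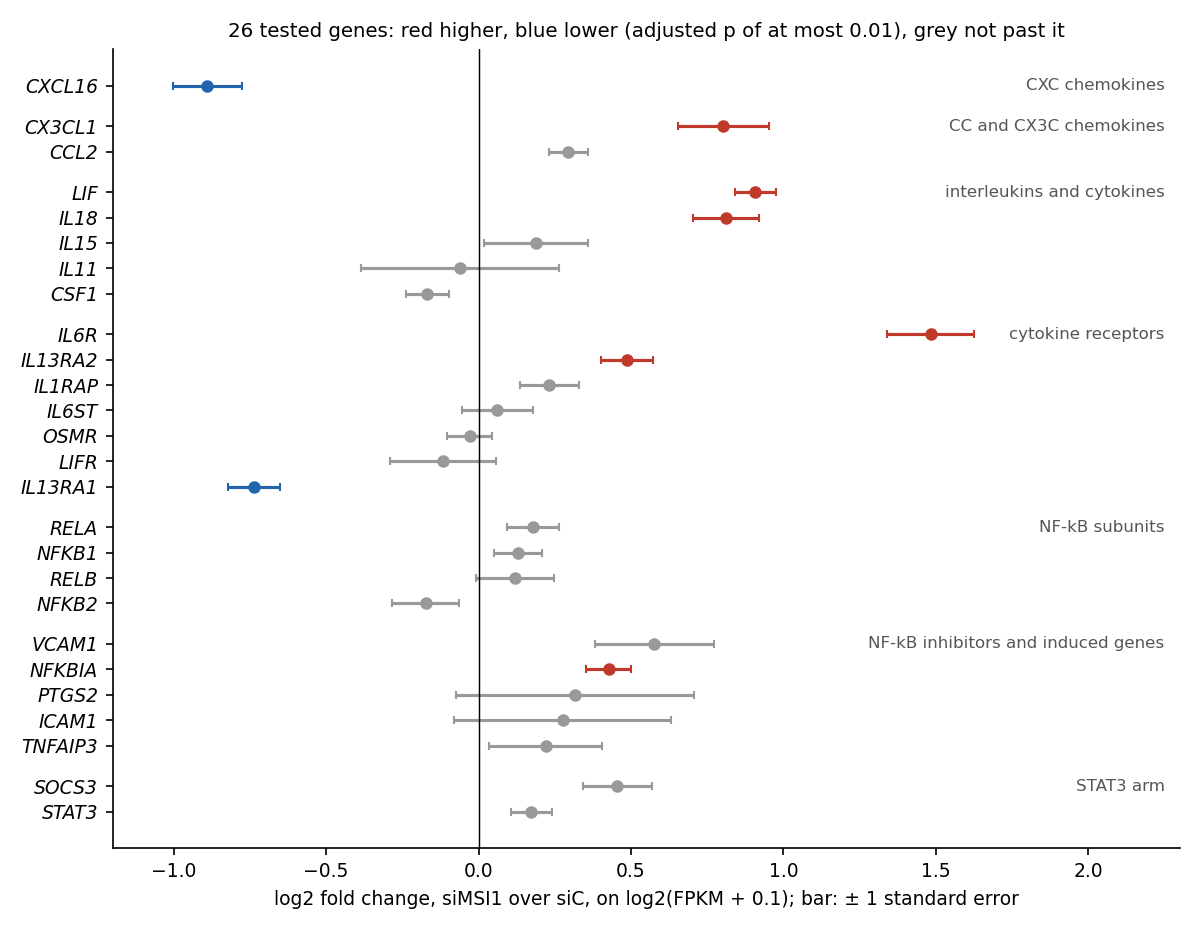
Log2 fold change of siMSI1 over siC on the log2(FPKM + 0.1) scale for the 26 tested genes, grouped by role, with bars of 1 standard error (limma, 3 libraries per group). Of the 8 coloured genes, CXCL16 and IL13RA1 lie below 0 and the other 6 lie above it, and the NF-kB subunits lie near 0, between -0.17 and 0.18.

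Among the ligands, LIF, IL18 and CX3CL1 rose and CXCL16 fell. LIF encodes leukemia inhibitory factor, a cytokine of the IL-6 family that maintains stem cells and acts through LIFR and gp130. It measured 8.02, 7.40 and 7.72 FPKM in the siC libraries against 14.9, 14.2 and 14.6 FPKM in the siMSI1 libraries. All siMSI1 libraries lay far above all siC libraries, with little spread within each group. The level rose from 7.71 ± 0.313 to 14.55 ± 0.328 FPKM (SD, n = 3 each), which is on the log2 scale 0.91 (limma standard error 0.067, with an adjusted p of 0.00027), with 441 to 869 reads per library. LIF (ENSG00000128342) is a minus-strand gene of chromosome 22 (GRCh38, 30240453 to 30246759). An antisense gene on the other strand, LIF-AS2, measured 0.588, 0.627 and 1.40 FPKM in the siC libraries against 3.16, 3.07 and 3.68 FPKM in the siMSI1 libraries. LIF-AS2 had a log2 fold change of 1.90 (limma standard error 0.29, with an adjusted p of 0.0035), with 7 to 42 reads per library. The libraries were strand-specific, but whether reads were counted by strand is not stated in the sources used here, so reads of the LIF locus may be shared between both genes.

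IL18 encodes a pro-inflammatory cytokine of the IL-1 family that is made as an inactive precursor. It measured 8.99, 9.99 and 10.2 FPKM in the siC libraries against 19.3, 17.6 and 14.8 FPKM in the siMSI1 libraries. Every siMSI1 library exceeded every siC library, and the siMSI1 libraries were spread more widely. IL18 (ENSG00000150782, chromosome 11 from 112143253 to 112164096, minus strand) rose from 9.73 ± 0.65 to 17.2 ± 2.27 FPKM (SD, n = 3 each). The log2 fold change was 0.81 (limma standard error 0.107, with an adjusted p of 0.0019), and its adjusted p was 0.0113 without siC replicate 1. The mRNA of its receptor chain IL18R1 had at most 2 reads in any library.

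CX3CL1 encodes fractalkine, a membrane-bound chemokine whose receptor CX3CR1 is known from microglia. It measured 1.27, 1.09 and 1.23 FPKM in the siC libraries against 2.08, 1.94 and 2.50 FPKM in the siMSI1 libraries. The groups did not overlap, at 106 to 215 reads per library. The log2 fold change of CX3CL1 (ENSG00000006210, chromosome 16 from 57372477 to 57385044, plus strand) was 0.80 (limma standard error 0.149, with an adjusted p of 0.0076). This call was lost in each of the 6 fits that left out 1 library, with adjusted p from 0.016 to 0.027.

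CXCL16, a membrane-bound scavenger receptor and chemokine for CXCR6, moved the other way. It measured 6.38, 5.955 and 6.79 FPKM in the siC libraries against 3.03, 3.30 and 3.89 FPKM in the siMSI1 libraries. All siMSI1 libraries were below all siC libraries. CXCL16 (ENSG00000161921, chromosome 17 from 4733533 to 4739928, minus strand) fell to 53.5% of its siC level, a log2 fold change of -0.89 (limma standard error 0.112, with an adjusted p of 0.0016), with 121 to 301 reads. Without siC replicate 1 its adjusted p was 0.0106. MED11, which overlaps CXCL16 on the opposite strand, was at 18.3 FPKM in siC and 19.1 FPKM in siMSI1 (log2 fold change 0.06, limma adjusted p 0.63).

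CCL2 was the most abundant of the 48 mRNAs. It measured 118.6, 116.9 and 110.1 FPKM in the siC libraries against 146.7, 140.5 and 136.9 FPKM in the siMSI1 libraries, with 3146 to 4294 reads per library. Its groups did not overlap, but the difference was small. The log2 fold change of 0.30 (standard error 0.063) was not past the threshold (limma adjusted p 0.0136), and it was past it with voom on the recovered reads (0.0048). CSF1, the growth factor of macrophages, measured 13.8, 13.9 and 14.7 FPKM in the siC libraries against 12.3, 12 and 13.4 FPKM in the siMSI1 libraries (log2 fold change -0.17, limma adjusted p 0.12). The other tested cytokines were low, IL15 with a mean of 0.9875 and 1.144 FPKM and IL11 with 0.811 and 0.828 FPKM in siC and siMSI1. IL11, a gp130 cytokine, ranged from 0.457 to 1.22 FPKM within siMSI1 alone, and neither gene was past the threshold (adjusted p = 0.46 and 0.92 from limma).

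**Figure D2:**
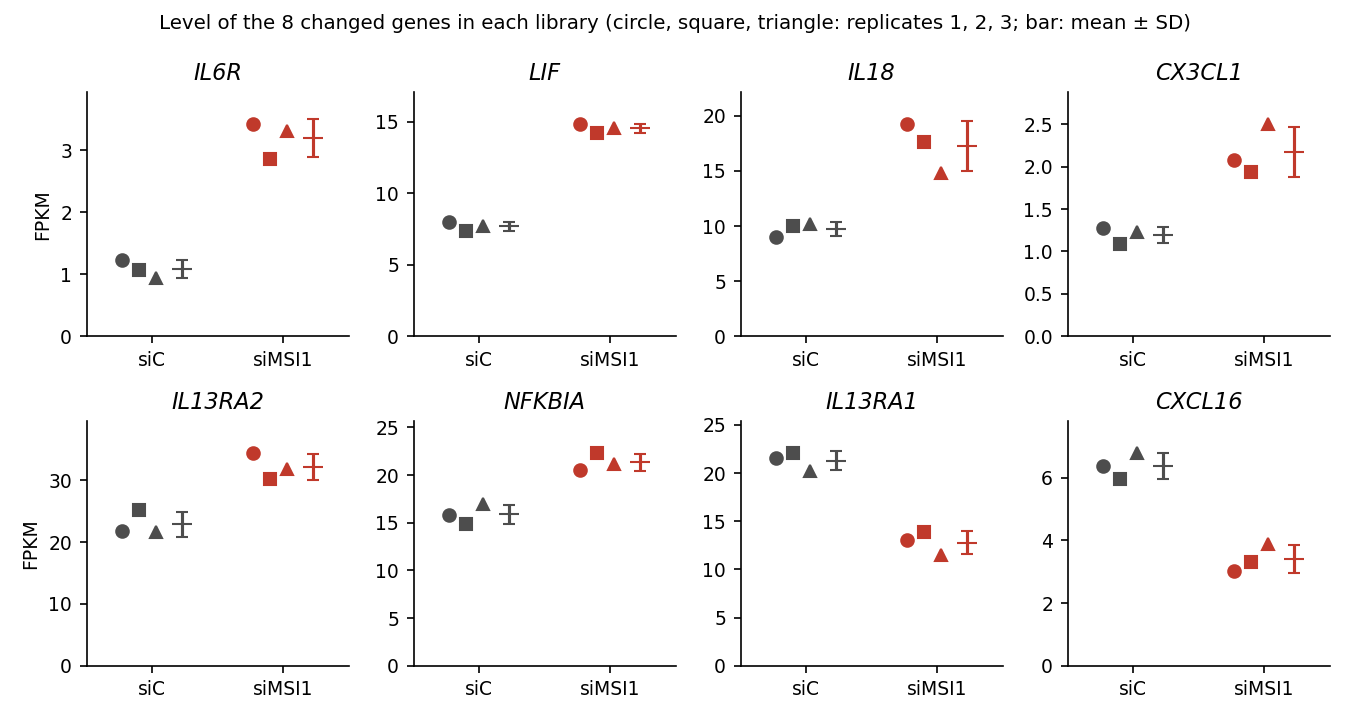
FPKM of the 8 changed genes in each of the 6 libraries, with symbols for replicates 1 to 3 and bars for the mean ± SD (n = 3); each vertical axis starts at 0 and has its own range. In each panel the 3 siMSI1 libraries lie entirely above or entirely below the 3 siC libraries.

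The receptors were split. The IL-6 receptor alpha chain IL6R, which binds IL-6 and passes it to gp130, had the largest change of all 26 tested members. It measured 1.23, 1.07 and 0.948 FPKM in the siC libraries against 3.43, 2.86 and 3.31 FPKM in the siMSI1 libraries. All siMSI1 libraries lay far above all siC libraries. IL6R (ENSG00000160712, chromosome 1 from 154405193 to 154469450, plus strand) rose by a log2 fold change of 1.48 (limma standard error 0.143, with an adjusted p of 0.00058), to 295.4% of the siC level, with 88 to 326 reads per library. Its ligand IL6 had at most 1 read in any library. The signal-transducing partner IL6ST measured 17.8, 21.4 and 17.5 FPKM in the siC libraries against 20.8, 21.4 and 17.0 FPKM in the siMSI1 libraries. Its groups overlapped (log2 fold change 0.06, limma standard error 0.116, adjusted p 0.73). A processed pseudogene on the opposite strand of its locus had means of 378.5 FPKM in siC and 593.5 FPKM in siMSI1, at 326 to 1209 reads per library (limma adjusted p 0.54). Whether reads were shared between IL6ST and this pseudogene was not tested.

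The receptors for IL-13 went in opposite directions. IL13RA1 forms the signalling receptor for IL-13 together with IL4R, and IL13RA2 is a high-affinity binding chain, long described as a decoy, that is often found on glioblastoma cells. IL13RA1 measured 21.6, 22.1 and 20.2 FPKM in the siC libraries against 13.0, 13.9 and 11.5 FPKM in the siMSI1 libraries. It was lower in every siMSI1 library. IL13RA1 (ENSG00000131724, chromosome X from 118727133 to 118794535, plus strand) fell to 59.9% of the siC level, a log2 fold change of -0.74 (limma standard error 0.086, with an adjusted p of 0.0012), with 719 to 1746 reads. IL13RA2 measured 21.8, 25.2 and 21.7 FPKM in the siC libraries against 34.4, 30.2 and 31.9 FPKM in the siMSI1 libraries. It was higher in every siMSI1 library. The log2 fold change of IL13RA2 (ENSG00000123496, chromosome X from 115003975 to 115019977, minus strand) was 0.49 (limma standard error 0.085, with an adjusted p of 0.0058). The call for IL13RA2 was lost in 5 of the 6 fits that left out 1 library, with adjusted p up to 0.032. IL4R was nearly silent, with at most 3 reads in any library.

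Both IL-13 receptor chains were thus at like levels in siC and at unlike levels in siMSI1. The ratio of IL13RA2 to IL13RA1 FPKM was 1.01, 1.143 and 1.07 in siC and 2.65, 2.18 and 2.78 in siMSI1. The ratio of LIF to LIFR FPKM was 2.82, 2.105 and 3.04 in siC and 4.89, 4.70 and 6.78 in siMSI1. The ratio of IL6R to IL6ST FPKM was 0.0693, 0.05001 and 0.0543 in siC and 0.165, 0.133 and 0.195 in siMSI1, so IL6R mRNA remained far below that of its partner. None of the ratios overlapped between the groups, and each had an exact permutation p of 0.1 (two-sided), the smallest that 3 libraries against 3 allow. The ratios carry the changes already given for their members and are no further test.

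**Figure D3:**
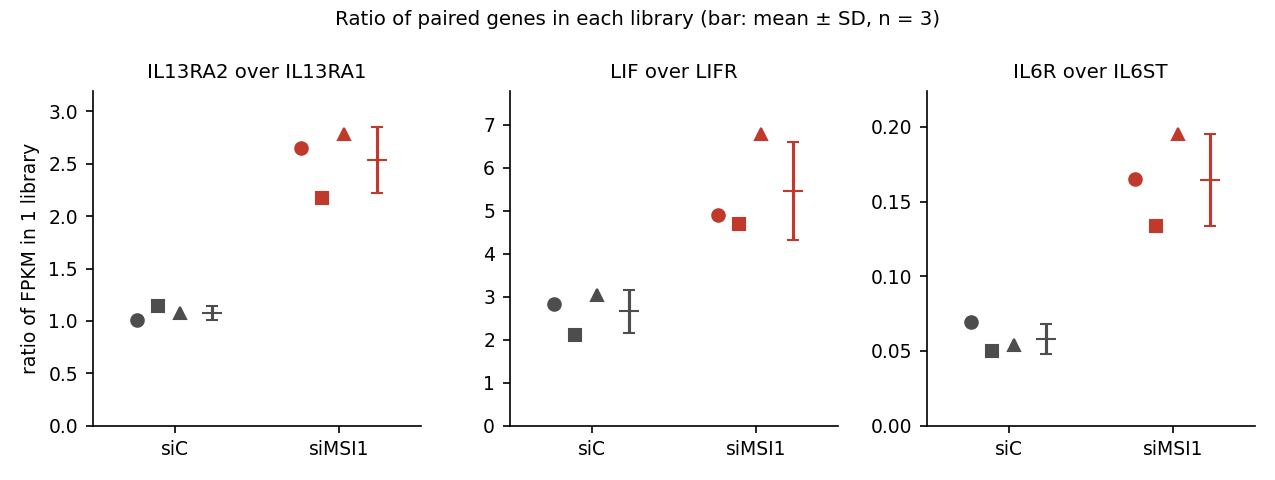
Ratio of the FPKM of paired genes within each library, with symbols for replicates 1 to 3 and bars for the mean ± SD (n = 3); axes start at 0. The IL13RA2 to IL13RA1 ratio was 1.08 ± 0.0663 in siC and 2.54 ± 0.317 in siMSI1.

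The remaining receptors showed no change past the threshold. LIFR was at 2.97 ± 0.499 FPKM in siC and 2.74 ± 0.505 FPKM in siMSI1 (SD, n = 3 each), and the oncostatin M receptor OSMR was at 23.5 ± 1.18 and 23.0 ± 1.51 FPKM. Their adjusted p were 0.67 and 0.81 (limma). The IL-1 receptor accessory protein IL1RAP was at 4.62 ± 0.269 FPKM in siC and 5.46 ± 0.462 FPKM in siMSI1, with an adjusted p of 0.12 (limma). IL1R1, the ligand-binding chain that it completes, had only 0 to 12 reads per library.

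The NF-kB subunits did not pass the test. RELA, the transactivating p65 subunit, measured 34.2, 30.9 and 33.5 FPKM in the siC libraries against 36.9, 34.0 and 41.0 FPKM in the siMSI1 libraries. NFKB1, which encodes p105 and p50, was at 5.14 ± 0.153 FPKM in siC and 5.64 ± 0.24 FPKM in siMSI1. NFKB2 and RELB, the pair of the non-canonical pathway, were with means of 7.49 and 3.54 FPKM in siC against 6.665 and 3.87 FPKM in siMSI1. The log2 fold changes of these 4 genes were between -0.17 and 0.18, with adjusted p from 0.17 to 0.53 (limma).

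NFKBIA, in contrast, rose. It encodes IkB-alpha, which retains NF-kB in the cytoplasm and is itself induced by NF-kB as a feedback inhibitor. It measured 15.8, 14.9 and 16.9 FPKM in the siC libraries against 20.6, 22.3 and 21.2 FPKM in the siMSI1 libraries. The groups did not overlap, and the level rose to 134.5% of that in siC. The log2 fold change of NFKBIA (ENSG00000100906, chromosome 14 from 35401079 to 35404749, minus strand) was 0.43 (limma standard error 0.073, with an adjusted p of 0.0054), with 563 to 722 reads. This call was lost in 5 of the 6 fits that left out 1 library, with adjusted p up to 0.030. The other 4 tested genes of this role were low and not past the threshold, and all had a log2 fold change above 0. The adhesion molecule VCAM1 measured 0.662, 0.859 and 0.908 FPKM in the siC libraries against 1.29, 1.38 and 1.09 FPKM in the siMSI1 libraries (log2 fold change 0.58, limma standard error 0.196, adjusted p 0.067). TNFAIP3, which encodes the ubiquitin-editing inhibitor A20, ranged from 0.819 to 0.936 FPKM in siC and from 0.951 to 1.21 FPKM in siMSI1, without overlap (log2 fold change 0.22, limma adjusted p 0.43). ICAM1 and PTGS2, which encode an adhesion molecule and cyclooxygenase-2, had 20 to 46 and 24 to 83 reads, and their groups overlapped.

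STAT3 measured 43.2, 41.4 and 43.9 FPKM in the siC libraries against 46.6, 47.0 and 51.5 FPKM in the siMSI1 libraries (log2 fold change 0.17, limma standard error 0.066, adjusted p 0.094). SOCS3, its target and the feedback inhibitor of gp130, measured 26.1, 25.6 and 29.9 FPKM in the siC libraries against 34.0, 34.6 and 44.1 FPKM in the siMSI1 libraries. The SOCS3 groups did not overlap, and siMSI1 replicate 3 was the highest. The log2 fold change of SOCS3 was 0.46 (standard error 0.114), which was not past the threshold (limma adjusted p 0.024). SOCS3 passed it with voom on the recovered reads (0.0025).

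The 22 members under the filter include most of the classical inflammatory cytokines. TNF, CSF2 and CXCL5 had 0 reads in all 6 libraries, which allows up to 3 reads per library. CXCL1, CXCL6, CXCL10, CCL5, CCL20, IL1B, IL6 and IL33 had 1 to 3 reads in all libraries together. In all, 13 of the 22 genes had at most 3 reads in every library of both groups. A fall, or a change within these few reads, was not detectable at this depth. The neutrophil chemokines CXCL2, CXCL3 and CXCL8 had 1 to 6 reads per library. CXCL1, CXCL2 and CXCL3 are near-identical copies, so reads that match several of them could be split or lost in counting. The T-cell chemokine CXCL11 had at most 2 reads, and CXCL12 and CXCL14 had 0 to 7 and 0 to 4 reads. IL32 and TNFAIP2 had 6 to 15 and 4 to 15 reads per library, with overlapping groups.

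IL1A, which encodes the alarmin IL-1 alpha, was the single one of these 22 genes whose groups did not overlap. It had 0, 3 and 6 reads in siC and 11, 10 and 9 reads in siMSI1 (exact permutation test on FPKM, two-sided, p = 0.1, the smallest possible). It was tested only without the filter on low genes, where its adjusted p was 0.14 (limma).

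**Figure D4:**
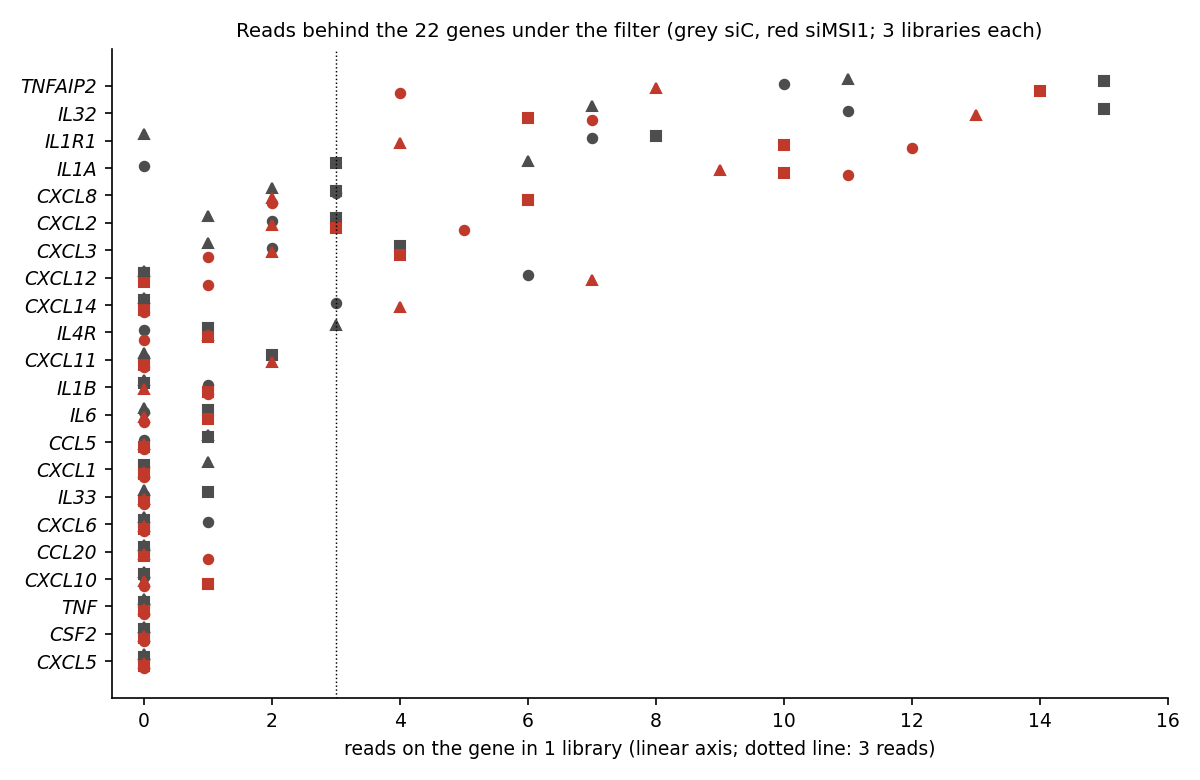
Reads on each of the 22 genes under the filter in each library (siC in grey drawn above siMSI1 in red, symbols for replicates 1 to 3), with a dotted line at 3 reads. IL1A is separated between the groups, at 0 to 6 reads for the siC libraries and 9 to 11 for the siMSI1 libraries, and no gene exceeds 15 reads.

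Matches to the NF-kB motif were found upstream of both silent and expressed members. RefSeq promoters (GRCh38.p14, 250 bases before the start) were found for 38 of the 48 genes, and those of CCL2, CCL5, CSF1, CX3CL1, CXCL16, IL13RA2, IL15, IL18, LIF and RELB were not. A single promoter was searched for each gene, and any other starts of the gene were not. The NF-kB consensus, searched on both strands, was found in 15 of the 38 (39.5%), against 5.05% of 27305 promoters of the same length. The members were listed for their link to NF-kB, so this share is a description. Of the 15 genes with a match, 4 were tested (NFKBIA, NFKB1, TNFAIP3 and VCAM1) and 11 were under the filter, and of the 23 without a match, 13 were tested and 10 were not. The matches of 5 chemokine genes of the chromosome 4 cluster, printed in capitals with 10 bases on each side, hold the same 10 letters within flanks that differ between CXCL1, CXCL2 and CXCL3 on one side and CXCL5 and CXCL6 on the other. Each is given 5′ to 3′ on the strand of its gene. In each of the 5 a second match on the opposite strand lies 1 base further on and overlaps the one shown.
CXCL1 (chr4:73869304-73869333, plus): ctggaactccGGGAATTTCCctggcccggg
CXCL2 (chr4:74099254-74099283, minus): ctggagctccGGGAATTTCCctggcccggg
CXCL3 (chr4:74038749-74038778, minus): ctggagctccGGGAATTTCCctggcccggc
CXCL5 (chr4:73998749-73998778, minus): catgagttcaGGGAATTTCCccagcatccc
CXCL6 (chr4:73836578-73836607, plus): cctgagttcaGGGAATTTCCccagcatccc

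These 5 genes had 0 to 5 reads per library in either group. NFKB1 holds the same capitals upstream of its start and averaged 5.39 FPKM over the 6 libraries. The matches of the 4 tested genes are shown for comparison on the strand of each gene. Those of NFKBIA and TNFAIP3 are matches on the opposite strand, and TNFAIP3 holds a second one.
NFKB1 (chr4:102501300-102501329, plus): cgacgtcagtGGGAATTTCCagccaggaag
NFKBIA (chr14:35404811-35404840, minus): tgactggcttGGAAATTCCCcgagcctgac
TNFAIP3 (chr6:137867182-137867211, plus): acgtgactttGGAAAGTCCCgtggaaatcc
VCAM1 (chr1:100719670-100719699, plus): tccccttgaaGGGATTTCCCtccgcctctg

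Of these, NFKBIA alone was past the threshold upon MSI1 knockdown. Only 3 of the 8 changed members (NFKBIA, IL6R and IL13RA1) had a promoter to search, so the other changed members were searched for neither motif. The STAT motif TTCNNNGAA was found in 8 of the 38 promoters (21.1%), against 6.78% of all promoters. These were CSF2, CXCL5, CXCL6, CXCL11, ICAM1, IL1B, LIFR and RELA. Of these 8, only ICAM1, LIFR and RELA were tested, and these 3 were not past the threshold. The members were a chosen list, so the share of 21.1% is a description too. The STAT matches of CXCL5 and CXCL6 have the same letters and overlap the NF-kB matches of these genes.

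The study tested reporters with CD44 3′UTR sites of 2 miRNAs, miR-27b-3p and miR-143-3p. Matches to the seeds of these 2 miRNAs were therefore searched in the 3′UTRs of the members (GENCODE release 44, canonical transcripts, GRCh38). Other miRNAs that the study examined for CD44 were not searched. The mature sequences are shown with the seed (bases 2 to 8) in capitals.
miR-27b-3p: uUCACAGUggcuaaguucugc
miR-143-3p: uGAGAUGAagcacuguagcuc

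The match to the miR-27b-3p seed, ACUGUGA, was in the 3′UTR of 8 of the 26 tested members and in 18.3% of 11273 tested genes. The median 3′UTR was 1632 bases in the tested members and 1356 bases in all of these genes. Of the 8 changed members, 4 held it: IL13RA1 and CXCL16, which were lower, and LIF and IL6R, which were higher. Each site is shown in capitals with 10 bases on each side, and the coordinates are those of the capitals.
IL13RA1 (chrX:118791879-118791885, plus): uuuuaccuucACUGUGAccuugagaag
CXCL16 (chr17:4733833-4733839, minus): uugcgcccuuACUGUGAuuccuggcuu
LIF (chr22:30242314-30242320, minus): cccauccccuACUGUGAcuugcuuuag
IL6R (chr1:154465626-154465632, plus): aacuugggccACUGUGAagagaaccau

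Among the changed members, the site was found in both directions of change. The match to the miR-143-3p seed, UCAUCUC, was in 4 of the 26 tested members and in 14.3% of the same 11273 genes. Of the changed members, LIF held it at positions 2374 and 2907 of its 3′UTR of 3198 bases, and IL18 at position 124 of 336 bases, and both were higher. Every site printed here lies in an exon, in the 3′UTR of its gene.

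The genes around these members were read off the same fit. The list of receptors, adaptors, kinases and inhibitors around NF-kB had 32 of 41 genes tested, of which 5 were higher and 2 were lower in siMSI1. These are 21.9% of the tested genes, against 11.0% of all tested genes, and the median log2 fold change was 0.05. The count of 7 became 1 without siC replicate 1, 3 without siC replicate 2 or siMSI1 replicate 1, and 4 without siC replicate 3 or siMSI1 replicate 2. It was also 3 without the filter on low genes and 3 with plain moderation. The count was higher in other alternatives, with 9 without siMSI1 replicate 3, 10 with voom on the recovered reads and 11 with the replicate block. TNFRSF12A, the receptor for TWEAK, measured 26.4, 23.3 and 23.1 FPKM in the siC libraries against 49.3, 44.5 and 52.5 FPKM in the siMSI1 libraries (log2 fold change 1.003, limma adjusted p 0.00043). The TNF receptor TNFRSF1A measured 70.1, 64.8 and 72.3 FPKM in the siC libraries against 103.2, 98.2 and 116 FPKM in the siMSI1 libraries (0.61, limma adjusted p 0.0020), although TNF itself had no read. BCL3, an atypical IkB protein that works in the nucleus, rose by 0.65. The kinase TAK1 (MAP3K7) and the Toll-like receptor adaptor TIRAP fell by 0.66 and 0.68. The last 2 genes past the threshold, TNIP2 and NFKBIB, were named after their values were seen. They encode an A20-binding inhibitor of NF-kB and IkB-beta, the paralog of IkB-alpha, and had log2 fold changes of 0.61 and 0.43. Of the 6 fits that left out 1 library, TIRAP and NFKBIB lost the call in 5, MAP3K7 and BCL3 in 4, and TNFRSF1A and TNIP2 in 1, that without siC replicate 1.

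Of the list of JAK, STAT and cytokine receptor genes, 26 of 37 were tested, 1 was higher and 2 were lower. These are 11.5% of the tested genes of the list, near the 11.0% of all tested genes. The median log2 fold change was 0.19. CLCF1, another ligand of the IL-6 family, measured 6.39, 7.08 and 7.14 FPKM in the siC libraries against 10.8, 10.7 and 11.6 FPKM in the siMSI1 libraries (log2 fold change 0.68, limma adjusted p 0.0012). SOCS1, which inhibits JAK kinases and restrains interferon signalling, fell by 0.64, and STAT2 fell by 0.60. SOCS1 lost the call in 3 of the 6 fits that left out 1 library, and STAT2 in 1, that without siC replicate 1. Of 30 interferon-stimulated genes, 19 were tested, 2 were higher (OAS1 and IFI35, log2 fold changes 0.92 and 0.83) and 1 was lower (STAT2, in both lists). This is a share of 15.8% against the 11.0% of all tested genes, with a median log2 fold change of 0.02. The call for OAS1 was lost in each of the 6 fits that left out 1 library (limma adjusted p from 0.018 to 0.031) and without the filter on low genes (0.021). None of the 18 chemokine receptors reached the filter, among them CXCR6 for CXCL16, CCR2 for CCL2 and CX3CR1 for CX3CL1, with at most 2, 0 and 4 reads per library. The 3 lists with tested genes and the chemokine receptors together had 12 of 75 tested genes past the threshold, a share of 16% against the 11.0% of all tested genes. This count was 3 without siC replicate 1, 6 without siMSI1 replicate 1, and 7 without siC replicate 2 or siMSI1 replicate 2. It was 13 without siMSI1 replicate 3 and 18 with voom on the recovered reads.

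**Figure D5:**
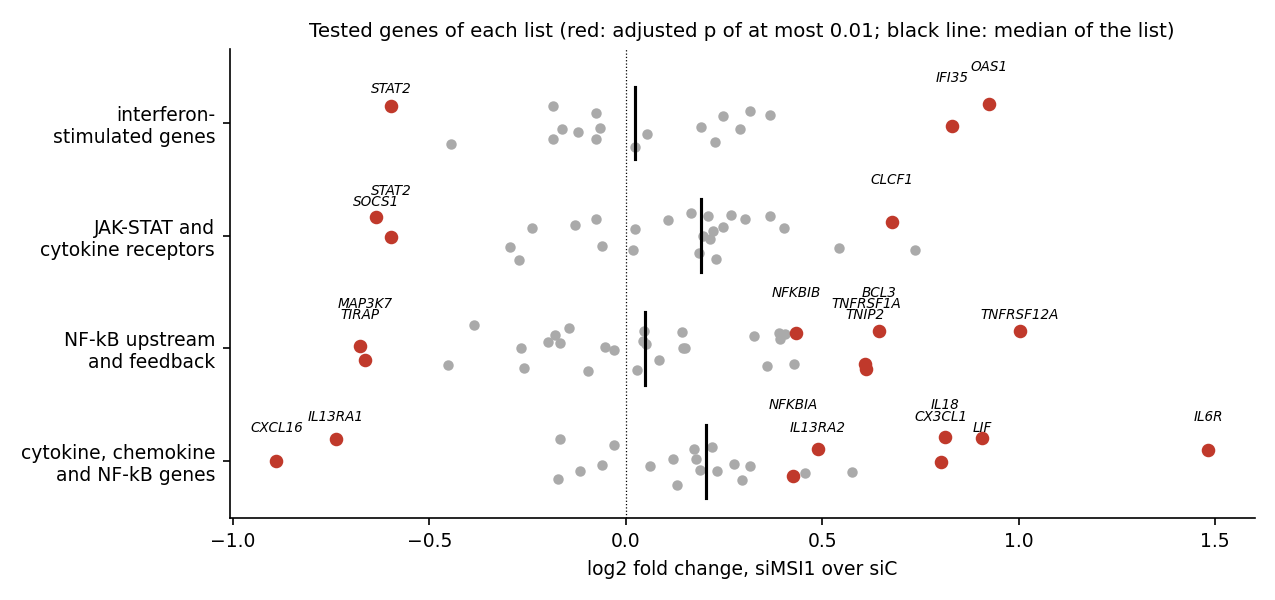
Log2 fold change of siMSI1 over siC for the tested genes of the 48-gene set and of 3 lists of related genes, with genes past an adjusted p of 0.01 in red and named, and the median of each list as a black line (vertical scatter only separates the points). The medians are 0.20, 0.05, 0.19 and 0.02 from bottom to top, and STAT2 is in both upper lists.

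Leaving out 1 library lowered the number of changed members to 3 without siC replicate 1 (IL6R, LIF and IL13RA1) and 5 without siC replicate 3, siMSI1 replicate 1 or siMSI1 replicate 2, while IL6R, LIF and IL13RA1 were past the threshold in all 16 alternatives. All 8 changed members kept their direction in every alternative.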

How the data were processed

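The authors clipped reads with cutadapt 1.14, aligned them to GRCh38 (hg38) with HISAT2 2.1.0, counted them per gene with featureCounts 1.5.3 on an Ensembl annotation, and deposited 1 table of FPKM per gene and library. Its columns of the authors' own fold changes, p-values and FDR were not used. Groups and replicate numbers came from the sample labels. FPKM times gene length was a whole multiple of the value of 1 read (within 0.01 reads) for 100% of the values above 0, which gave the reads.

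limma 3.58.1 (R 4.3.3; lmFit, eBayes with trend and robust) was fitted to log2(FPKM + 0.1) of 15069 genes whose mean over the 6 libraries reached 0.5 FPKM. The threshold was a Benjamini-Hochberg adjusted p of 0.01, two-sided. The added 0.1 understates changes of low genes. On simulated data with 200 changed genes, 131 were called, with 120 of the 150 changed 2-fold or more, and 8 of 14904 unchanged genes. These 8 were a larger share of the calls than the threshold of 0.01. With voom, 160 of the 200 changed and 1 of the 14904 unchanged genes were called. The simulated reads had the same dispersion for every gene, and 200 genes were changed where 1655 were called in the data. The shares called in the simulation therefore need not hold for the data. The members, the lists and the alternatives were chosen with earlier results of these data known. Members past the threshold and, of each list, at most the 5 largest changes past it are named. The reads of the most similar replicate pair had a chi-square of 3.55 per degree of freedom, so no library was taken as a copy of another. Each was counted as a sample, although this value cannot show whether they came from separate cultures. Of the 58174 gene identifiers, 57392 were found in GENCODE release 44 on GRCh38, with all 48 members. Promoters and miRNAs were taken from RefSeq (GRCh38.p14). Python 3.11.15 was used for the rest.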

Additional observations from a re-analysis of the deposited data

How the results depend on the processing

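The 8 changed members kept their direction in all 16 alternatives. The count of changed members was 5 without the filter on low genes and 5 with limma's moderation without trend and robust, where 3 instead of 6 were higher. It was 10, with 8 higher, both with voom on the recovered reads and at an adjusted p of 0.05. With 1 library left out it was 3 to 6, with 2 to 4 higher and 1 to 2 lower. The 12 related genes past the threshold became 6 without the filter, 7 with plain moderation, 21 at an adjusted p of 0.05 and 3 to 13 with 1 library left out. Same-numbered libraries had correlations of deviations of -0.0661, 0.0783 and 0.0830, and the other pairs ranged from -0.144 to 0.0700. With 3 libraries per group, these values cannot show whether the replicate numbers pair the libraries. With the replicate block, 9 members and 17 related genes were past the threshold, with IL13RA2 lost (adjusted p 0.0101) and CCL2 and SOCS3 gained (0.0076 and 0.0033, limma). The share of higher calls among members was not moved by the scaling alternatives by more than a single gene. The sign turned for 5 members, none of which was past the threshold in any alternative. Their main log2 fold changes were between -0.12 and 0.32. With 1 library left out, the log2 fold change ranged from -0.3569 to 0.2651 for IL11, from -0.0007857 to 0.1663 for IL6ST, from -0.06435 to 0.02559 for OSMR, from -0.2182 to 0.04204 for LIFR and from -0.01194 to 0.5331 for PTGS2. Low read numbers limit the 22 members that were not tested.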

Other observations

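Several other ligands and receptors of the IL-6 family had few reads in KNS42 cells. The ligands CTF1 and OSM had at most 3 and 1 reads in any library, the receptor chain CNTFR at most 6, and IL11RA 3 to 23. LIF and CLCF1, both higher in siMSI1, had more mRNA than CTF1, OSM and IL11.

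Among genes singled out after their values were seen, TLR4, the receptor for bacterial lipopolysaccharide, measured 73.1, 81.2 and 70.9 FPKM in the siC libraries against 66.0, 69.1 and 53.8 FPKM in the siMSI1 libraries (log2 fold change -0.26, limma adjusted p 0.11). CXCR5, a chemokine receptor of lymphocytes measured 0.0753, 0.112 and 0.0941 FPKM in the siC libraries against 0.2603, 0.379 and 0.283 FPKM in the siMSI1 libraries, with 5 to 22 reads per library.

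MSI1 is known to bind RNA at UAG. The 3′UTRs of the changed members held 10.1 UAG per kb in IL6R, 8.44 in LIF, 11.9 in IL18, 6.96 in CX3CL1, 4 in NFKBIA, 13.4 in IL13RA1, 8.25 in CXCL16 and 0 in IL13RA2, whose 3′UTR has 98 bases. The quartiles over the tested genes were 7.38, 11.2 and 14.3 per kb.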
